A study of Mus with 2 samples.

Results

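Brown fat identity rests on a small set of transcription factors and coactivators, and 10 of them were followed here among the 32285 genes listed for single nuclei of mouse interscapular brown adipose tissue (iBAT). The set was the nuclear receptors *Pparg*, *Ppara*, *Esrra* and *Esrrg*, the coactivators *Ppargc1a* and *Ppargc1b*, the zinc finger coregulator *Prdm16*, the early B cell factor *Ebf2*, and the CCAAT/enhancer-binding proteins *Cebpa* and *Cebpb*. The genes were listed by name as known regulators of the brown adipocyte program, and all 10 were detected in adipocyte-like nuclei of both libraries. PPARγ, made from *Pparg*, is the nuclear receptor that drives adipocyte differentiation, and it works together with C/EBP factors on a shared set of fat cell genes. PRDM16 and EBF2 give these factors their brown bias, while PGC-1α and PGC-1β coactivate the PPARs and the estrogen-related receptors to raise mitochondrial biogenesis and fatty acid oxidation. Thermogenesis in this tissue follows from that program through uncoupling protein 1.

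Both libraries came from C57BL/6 mice on normal chow at the age of 8 weeks. The control library was made from *Wtap* flox/flox mice, whose *Wtap* alleles carry loxP sites, and the other from mice labelled *Wtap*-BKO, which carry the same floxed alleles and UCP1-iCre. In the iCre line an IRES-Cre stands in the *Ucp1* gene itself, so that Cre is made in cells that transcribe *Ucp1*. Frozen tissue of 4 mice was pooled for each library, so the mice cannot be told apart, each genotype had 1 library, and no test between genotypes could be made. WTAP is a subunit of the complex that writes N6-methyladenosine into mRNA.

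The libraries held 9494 and 8772 nuclei (control and labelled *Wtap*-BKO), with medians of 954 and 1306 unique molecular identifiers (UMIs) per nucleus. Mitochondrially encoded genes took 7.60% and 11.7% of the UMIs, and 20 cell barcodes occurred in both libraries. Levels are given below as CPM (a gene's share of all UMIs, scaled to 1000000) over the pooled nuclei of a class. All intervals are 95% intervals (Poisson for CPM, binomial for shares, conditional for ratios) that cover counting error only. Where 2 values stand together, the control library comes first. Differences between mice or preparations were not measured. By marker genes, 6726 nuclei (70.8%) and 4909 nuclei (56.0%) were adipocyte-like. In these nuclei, 9 and 10 of 12 markers of adipocytes reached 2 times their CPM elsewhere, and none was at 0. Another 2303 and 3469 nuclei were endothelial-, pericyte-, fibroblast-, macrophage-, T cell- or B cell-like, of which the macrophage-like cluster also carried dendritic cell markers. Another 2 clusters, with 465 and 394 nuclei, were left unnamed.

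*Wtap* itself had 382 UMIs in adipocyte-like nuclei of the control library and 401 UMIs in those of the library labelled *Wtap*-BKO. This was 50.4 and 48.3 CPM, a log2 ratio of -0.06 with an interval from -0.27 to 0.15. UMIs were summed over the whole gene, so the count does not show the floxed exon and does not check the genotype labels. All directions between the libraries below rest on those labels.

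The members differed in how far they were concentrated in adipocyte-like nuclei. Of the 10 members, 7 had at least 2 times the CPM in adipocyte-like nuclei that they had in the named non-adipocyte nuclei, in either library. Among all genes tested, this held for 10.2% in the control library and 10.5% in the library labelled *Wtap*-BKO. The median log2 ratio over the members was 1.31 and 1.37, against 0.08 and -0.21 over all genes. *Cebpa*, *Cebpb* and *Ebf2* were the members below that fold. *Pparg* (log2 ratios of 1.02 and 1.01) and *Esrra* (1.07 and 1.05) lay just above it, and without nuclei over 5% mitochondrial UMIs they had 0.84 and 0.93 in the control library. *Ebf2* passed it in the control library at 1.08 with the highest doublet scores removed, and *Cebpa* in the other library at 1.28 with lineages set by marker sums per nucleus. *Cebpa* of the control library went from -0.24 to 0.61 without nuclei over 5% mitochondrial UMIs. The plot of levels by lineage gives all values.

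**Figure D1:**
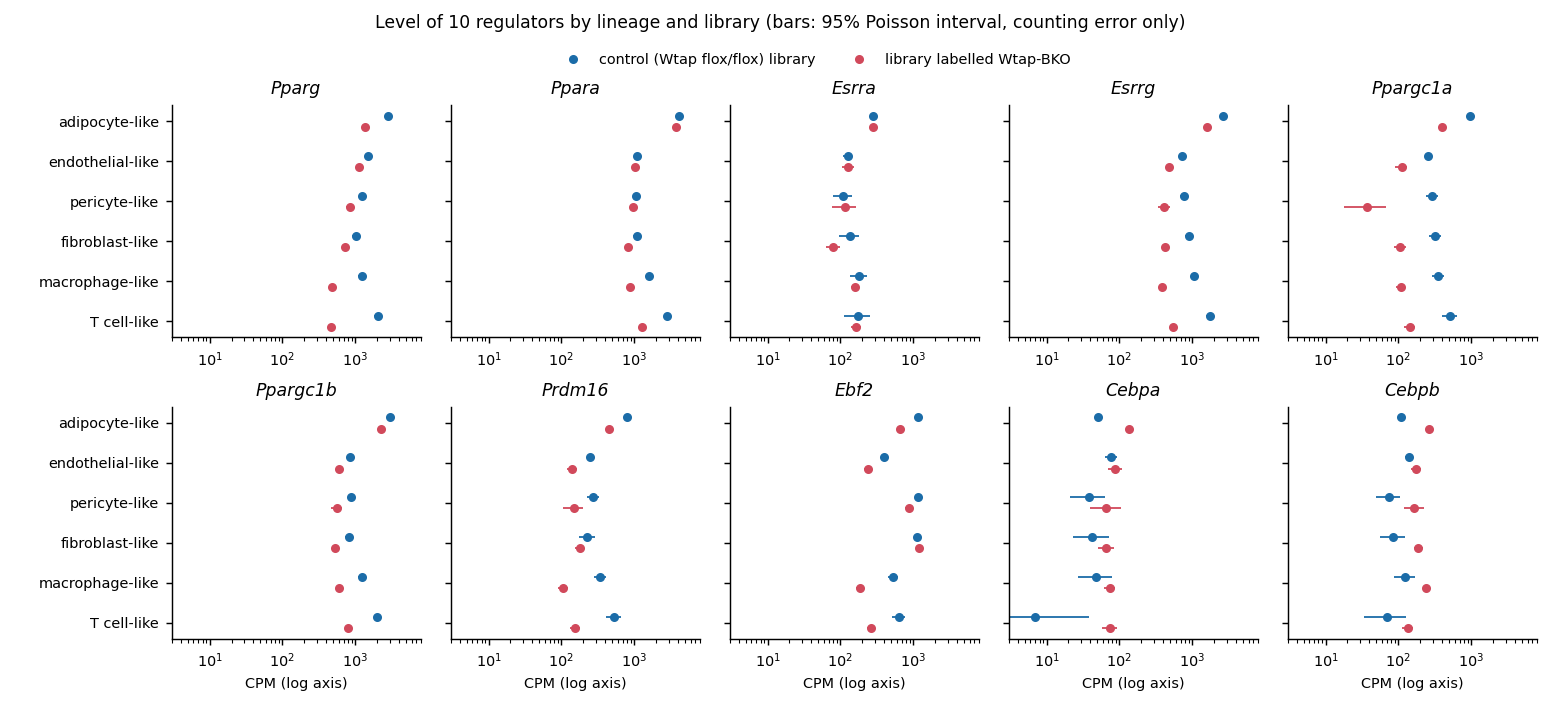
Each panel shows 1 regulator, with its level in CPM on a log axis and 6 lineages of nuclei as rows, blue for the control (*Wtap* flox/flox) library and red for the library labelled *Wtap*-BKO, and bars for the 95% Poisson interval. Most regulators peak in adipocyte-like nuclei, *Ebf2* in fibroblast-like nuclei is as high as in adipocyte-like nuclei in blue and higher in red, and the red points of *Cebpa* and *Cebpb* lie to the right of the blue ones.

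*Pparg* (chromosome 6, 115360879 to 115490404 in GRCm38) is the master receptor of fat cell differentiation. It stood at 2870 CPM in adipocyte-like nuclei of the control library and at 1351 CPM in those of the library labelled *Wtap*-BKO. In endothelial-like nuclei it had 1518 and 1132 CPM, and in fibroblast-like nuclei 1033 and 722 CPM. Macrophage-like nuclei had 1234 and 482 CPM, and T cell-like nuclei 2060 and 465 CPM, so the order of the lower lineages was not the same in the 2 libraries.

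*Ppara* (chromosome 15, 85734910 to 85806851), the receptor that controls fatty acid oxidation genes, had 4107 and 3787 CPM in adipocyte-like nuclei. Among the other lineages with over 100 nuclei it was highest in T cell-like nuclei, at 2835 and 1287 CPM. The estrogen-related receptors act on genes of oxidative metabolism. *Esrrg* (chromosome 1, 187608510 to 188214885) had 2643 and 1614 CPM in adipocyte-like nuclei and 732 and 489 CPM in endothelial-like nuclei. *Esrra* (chromosome 19, 6910977 to 6922048) had 279 and 286 CPM in adipocyte-like nuclei, and 133 and 138 CPM over the non-adipocyte nuclei.

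Of the coactivators, *Ppargc1b* (chromosome 18, 61291445 to 61400756) had 3048 and 2269 CPM in adipocyte-like nuclei. *Ppargc1a* (chromosome 5, 51454249 to 52115853), which is induced by adrenergic signals in brown fat, had 986 and 406 CPM there. Over the non-adipocyte nuclei, *Ppargc1b* had 958 and 628 CPM and *Ppargc1a* had 293 and 112 CPM.

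*Prdm16* (chromosome 4, 154316122 to 154637360), the coregulator that steers precursors to a brown fate, had 802 and 449 CPM in adipocyte-like nuclei and 273 and 139.8 CPM over the non-adipocyte nuclei. *Ebf2* (chromosome 14, 67233292 to 67430952) marks committed brown precursors and opens brown gene promoters to PPARγ. It had 1178 and 665 CPM in adipocyte-like nuclei, 1148 and 1208 CPM in fibroblast-like nuclei, and 1166 and 878 CPM in pericyte-like nuclei. In the control library the log2 ratios of adipocyte-like nuclei over fibroblast-like and over pericyte-like nuclei were 0.04 and 0.02, with intervals that included 0. In the library labelled *Wtap*-BKO, the log2 ratio of adipocyte-like over fibroblast-like nuclei was -0.86 (interval -0.95 to -0.77), so that fibroblast-like nuclei had the most *Ebf2* of the named lineages.

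*Cebpa* (chromosome 7, 35119293 to 35121928) sustains PPARγ in mature fat cells, and *Cebpb* (chromosome 2, 167688915 to 167690432) acts early in differentiation and on cAMP-induced genes. Both were sparse. *Cebpa* had 389 UMIs (51.3 CPM) and 1142 UMIs (138 CPM) in adipocyte-like nuclei. Its highest level among the named lineages of the control library was in endothelial-like nuclei, at 77.7 CPM, and in the library labelled *Wtap*-BKO it was in adipocyte-like nuclei. *Cebpb* had 822 UMIs (108 CPM) and 2209 UMIs (266 CPM) in adipocyte-like nuclei, and 124 and 239 CPM in macrophage-like nuclei.

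Levels were not ranked between members. Their spans in the RefSeq table run from 1.52 kb for *Cebpb* to 662 kb for *Ppargc1a*, and neither the share of intronic UMIs nor a dependence of UMIs on span was measured.

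UMIs of adipocyte genes occurred in every lineage, and whether they came from free adipocyte RNA was not measured. The summed CPM of 8 adipocyte reference genes (*Adipoq*, *Plin1*, *Plin4*, *Plin5*, *Cidec*, *Cidea*, *Lipe* and *Adrb3*) in non-adipocyte nuclei was 54.0% of that in adipocyte-like nuclei in the control library, and 32.8% in the library labelled *Wtap*-BKO. RNA from a single source would keep its genes in 1 proportion in every lineage. Each member's UMIs were therefore divided by the UMIs of the reference genes, and the quotient was set relative to that of adipocyte-like nuclei of the same library, where it is 1.

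*Esrrg*, *Ppara*, *Ppargc1a* and *Ppargc1b* had quotients from 0.31 to 1.08 in endothelial-, pericyte-, fibroblast-, macrophage- and T cell-like nuclei of both libraries, and no interval lay above 1. Many lay below 1, with 0.44 to 0.47 for the 4 genes in endothelial-like and 0.58 to 0.66 in pericyte-like nuclei of the control library, and 0.64 to 0.73 in endothelial-like nuclei of the library labelled *Wtap*-BKO. A single proportion of adipocyte RNA therefore did not hold in these lineages, and a quotient of 1 is not the value of no excess there. Of these 5 lineages, *Prdm16* had a quotient above 1 beyond its interval only in fibroblast-like nuclei of the library labelled *Wtap*-BKO, at 1.55 (1.33 to 1.81), with 0.77 in the control library. For comparison, *Wtap*, which is used by cells of all kinds, had quotients from 1.60 to 4.78 in these lineages.

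*Ebf2* exceeded the proportion of adipocyte RNA in stromal lineages. Its quotient was 2.66 (2.38 to 2.96) and 7.13 (6.70 to 7.58) in fibroblast-like nuclei, and 2.21 (2.01 to 2.43) and 4.49 (3.92 to 5.11) in pericyte-like nuclei. In macrophage-like nuclei it was 0.92 and 0.93, and in T cell-like nuclei 0.85 and 1.07, with intervals that included 1.

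*Cebpb* had quotients of 2.32 (1.63 to 3.19) and 2.99 (2.70 to 3.32) in macrophage-like nuclei, and of 2.15 and 2.78 in fibroblast-like nuclei. *Cebpa* reached 2.54 (2.06 to 3.12) in endothelial-like nuclei of the control library and 1.54 (1.22 to 1.91) in those of the library labelled *Wtap*-BKO. *Esrra* was at 1.84 (1.62 to 2.08) in macrophage-like nuclei of the library labelled *Wtap*-BKO, and its interval included 1 in those of the control library.

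*Pparg* differed between the libraries on this scale. In the control library its quotient was 0.89 in endothelial-like (where the 4 genes above had 0.44 to 0.47), 0.97 in pericyte-like and 0.98 in fibroblast-like nuclei. The same lineages of the library labelled *Wtap*-BKO had 2.01 (1.89 to 2.14), 2.15 (1.88 to 2.45) and 2.09 (1.94 to 2.26). The denominator moved as well, since the reference genes had 5021 CPM in adipocyte-like nuclei of the control library and 7869 CPM in those of the library labelled *Wtap*-BKO.

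**Figure D2:**
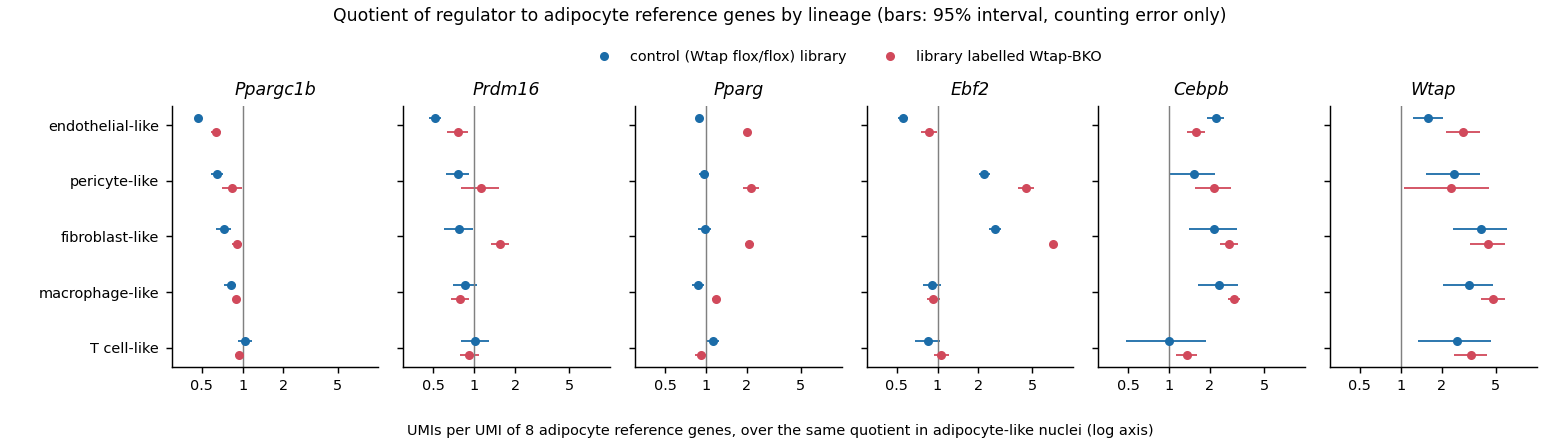
Each panel shows 1 gene, with its UMIs per UMI of 8 adipocyte reference genes relative to adipocyte-like nuclei of the same library on a log axis, 5 lineages as rows, and bars for the 95% interval. *Ppargc1b* lies left of 1 or within its interval of 1, *Ebf2* lies right of 1 in pericyte- and fibroblast-like nuclei, and *Pparg* is near 1 in blue and near 2 in red in the upper 3 lineages.

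Between the libraries, the members moved in both directions. In adipocyte-like nuclei, 5 of 10 members were at least 1.5-fold lower in the library labelled *Wtap*-BKO, against 12.1% of the 14077 genes tested, and 2 of 10 were at least 1.5-fold higher, against 25.2%. The median log2 ratio was -0.57 over the members and 0.08 over all genes.

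The largest difference downward was in *Ppargc1a*, with a log2 ratio of -1.28 (interval -1.34 to -1.22), followed by *Pparg* at -1.09 (-1.12 to -1.05). *Prdm16* had -0.84 (-0.90 to -0.78), *Ebf2* had -0.83 (-0.87 to -0.78) and *Esrrg* had -0.71 (-0.74 to -0.68). The partner forms differed less. *Ppargc1b* had a log2 ratio of -0.43 (-0.45 to -0.40), *Ppara* had -0.12 (-0.14 to -0.09), and *Esrra* had 0.03 (-0.05 to 0.12). Within the receptor and coactivator pairs, therefore, *Pparg* stood below *Ppara*, *Esrrg* below *Esrra* and *Ppargc1a* below *Ppargc1b*, with intervals that did not overlap in any pair.

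The C/EBP genes went the other way. *Cebpa* had a log2 ratio of 1.42 (1.26 to 1.59) and *Cebpb* of 1.30 (1.18 to 1.41). Shares of nuclei with a UMI were taken after each nucleus had been thinned to 1000 UMIs, which left out 3436 and 1089 shallower adipocyte-like nuclei. *Cebpa* was seen in 4.4% of 3290 adipocyte-like nuclei of the control library and in 11.9% of 3820 in the library labelled *Wtap*-BKO. *Cebpb* was seen in 9.0% and 22.2%. Without thinning, the shares were 5.5% and 19.6% for *Cebpa* and 11% and 32.7% for *Cebpb*. In macrophage- and T cell-like nuclei thinned the same way (181 and 1123), the shares were 2.2% and 6.5% for *Cebpa* and 8.8% and 17.4% for *Cebpb*. The shares of both genes in adipocyte-like nuclei of the control library thus lay within the intervals of those in immune nuclei.

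**Figure D3:**
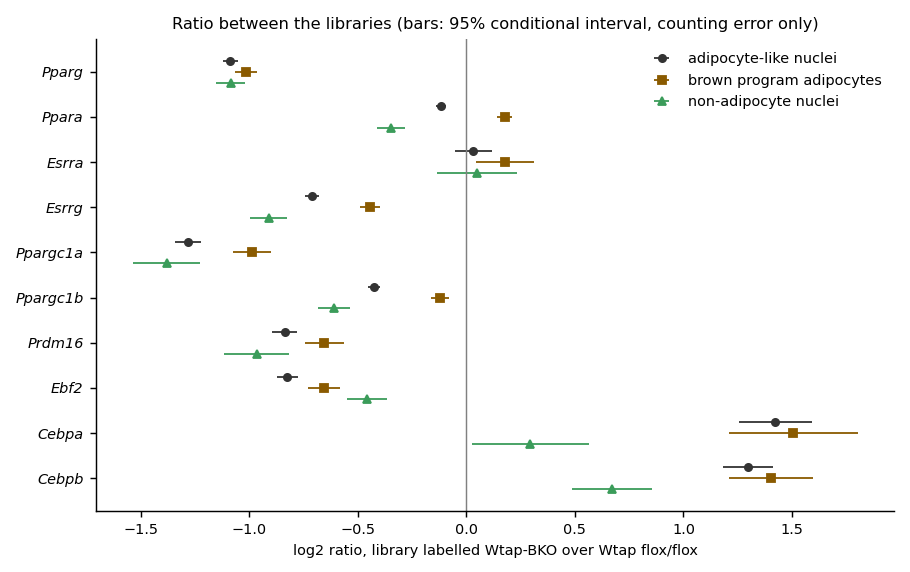
Points show how each regulator differed between the libraries (log2 of labelled *Wtap*-BKO over control) in adipocyte-like nuclei, in the brown program subtype and in non-adipocyte nuclei, with bars for the 95% conditional interval. *Pparg* and *Ppargc1a* lie near -1 or below in all 3 classes, and *Cebpa* and *Cebpb* lie above 1 in the adipocyte classes only.

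Depth and mitochondrial RNA moved with the libraries. Adipocyte-like nuclei had medians of 990 and 1475 UMIs, and median mitochondrial shares of 2.96% and 9.85%. Within 4 bins of mitochondrial share, the log2 ratio ran from -0.83 to -0.66 for *Pparg*, from -1.03 to -0.75 for *Ppargc1a* and from -0.64 to -0.43 for *Ebf2*. It ran from 0.88 to 1.11 for *Cebpa*. *Cebpb* had 1.01 to 1.04 in the 3 bins under 25%, and 3.81 (1.93 to 6.86) at 25% and over, which rests on 2 UMIs in the control library. *Prdm16* went from -0.65 in nuclei under 5% mitochondrial UMIs to -0.28 between 10% and 25% and -0.14 at 25% and over, where the control library had 51 nuclei. *Esrrg* ran from -0.67 under 5% to -0.26 between 10% and 25%, and was under 1.5-fold lower in all bins at 5% and over. *Ppara* changed sign, from -0.12 under 5% to 0.14, 0.41 (0.33 to 0.48) and 0.44 in the higher bins. *Ppargc1b* went from -0.40 to -0.11, -0.03 and 0.27, and *Esrra* had 0.32 (0.06 to 0.59) between 10% and 25%. The number of members at least 1.5-fold lower was 5 in nuclei under 5%, 3 between 5% and 10%, 2 between 10% and 25% and 3 at 25% and over. The share of all genes past that fold was not computed within the bins, so these counts have no share to be set against. Within 3 bins of depth, the 5 lower members had log2 ratios between -1.61 and -0.77. The part of mitochondrial RNA in these differences was not tested beyond the bins.

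Lower values of members were not limited to adipocyte-like nuclei. Over the non-adipocyte nuclei, 5 of 10 members were at least 1.5-fold lower, against 8.63% of 13889 genes, and the median was -0.53 over the members (-1.43 without nuclei over 5% mitochondrial UMIs) and 0.31 over all genes. *Pparg* had a log2 ratio of -1.09, *Ppargc1a* of -1.38, *Prdm16* of -0.97, *Esrrg* of -0.91 and *Ppargc1b* of -0.61. *Ebf2* had -0.46 there, with 0.07 (interval -0.10 to 0.25) in fibroblast-like nuclei and -1.53 in macrophage-like nuclei. T cell-like nuclei, which had 119 and 758 nuclei, showed the lowest *Pparg* ratio, -2.15 (-2.36 to -1.93), while endothelial-like nuclei had -0.42 (-0.53 to -0.32). *Cebpa* and *Cebpb* had smaller ratios over the non-adipocyte nuclei than in adipocyte-like nuclei, at 0.29 and 0.67, and *Cebpa* turned to -0.17 with lineages set by marker sums. How much of these values comes from adipocyte RNA in the droplets was not tested beyond the quotients above.

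The regulators with which the members work were taken as a list of 38 partners, which holds retinoid X receptors, corepressors, coactivators and other brown fat factors. In adipocyte-like nuclei, 7 of 38 were at least 1.5-fold lower and 6 of 38 at least 1.5-fold higher, with a median log2 ratio of -0.06, beside the shares of 12.1% and 25.2% and the median of 0.08 over all genes. Without nuclei over 5% mitochondrial UMIs the counts were 5 and 8 and the median turned to 0.08. The lowest were *Esrrb*, another estrogen-related receptor, at -1.53 on 45 and 17 UMIs, and *Foxo1*, a forkhead factor under insulin control, at -1.24 (927 and 392 CPM). *Gabpa*, an ETS factor of nuclear genes for mitochondrial proteins, had -1.05, and *Tle3*, a corepressor that competes with PRDM16 on PPARγ, had -0.79. At the upper end stood *Klf11* at 1.27 (6.86 and 16.5 CPM) and *Nr1d1*, the clock repressor REV-ERBα, at 1.07. *Nrip1*, a corepressor of nuclear receptors that restrains brown fat genes, had 0.98 (198 and 390 CPM), and *Tbx15*, a T-box factor of brown precursors, had 0.77. The retinoid X receptors, the obligate dimer partners of the PPARs, had log2 ratios from -0.32 for *Rxrb* to 0.14 for *Rxra* and *Rxrg*.

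Of 30 known target genes, 28 had at least 20 UMIs, 3 were at least 1.5-fold lower and 7 at least 1.5-fold higher. These shares were close to the 12.1% and 25.2% over all genes, so the counts do not set the targets apart, and the median log2 ratio was -0.24 (-0.0054 with no minimum of UMIs). Without nuclei over 5% mitochondrial UMIs, 6 targets were at least 1.5-fold lower, so the lower count depends on that setting. Lowest were *Plin5*, a lipid droplet protein of oxidative cells, at -1.08 and *Gk*, glycerol kinase, at -1.04. *Cox8b*, a cytochrome oxidase subunit of brown fat and muscle, had -0.62. Highest were *Pck1*, the enzyme of glyceroneogenesis, at 1.40 (711 and 1882 CPM) and *Fabp4*, the fatty acid binding protein of adipocytes, at 1.32 (1443 and 3592 CPM). *Adipoq*, which encodes adiponectin, had 1.11, and *Cidec*, a lipid droplet fusion protein, had 1.01. Of the 30 targets, 5 were also adipocyte markers, among them *Adipoq* and *Cidec* at the upper end and *Plin5* at the lower end. *Ucp1*, named after its value was seen because iCre stands in this gene, had 0.78 (151 and 259 CPM) in adipocyte-like nuclei and -0.88 over the non-adipocyte nuclei. *Elovl3* and *Fgf21* had at most 16 UMIs in either library and were not compared.

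The adipocyte-like nuclei fell into subtypes that were named from fixed markers, and all members were left out of the genes used for clustering. The brown program subtype (markers *Lncbate10*, *Foxp2*, *Erbb4* and *Lgr6*) held 2510 and 1152 nuclei. The Slc7a10-type (*Slc7a10*, *Cyp2e1*, *Trhde* and *Retn*) held 218 and 502, and the interferon-type (markers that include *Gbp6*, *Iigp1*, *Ifit1*, *Ifit3* and *Irgm1*) held 144 and 342. The other 3854 and 2913 adipocyte-like nuclei met none of these naming rules. The brown program markers were not absent outside their cluster. They had a summed 1600 and 1094 CPM in brown program nuclei, and 750.3 and 417 CPM over all other nuclei of the library, non-adipocyte nuclei included.

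Slc7a10-type nuclei had less of most members than brown program nuclei. In the control library, 7 of 10 members were at least 1.5-fold lower (21.0% of 10132 genes) and 1 was at least 1.5-fold higher (17.9%). The library labelled *Wtap*-BKO had 7 of 10 lower (18.7% of 10635 genes) and 0 higher (12.9%). Median log2 ratios over the members were -0.95 and -0.88, against -0.01 and -0.08 over all genes. The 7 were *Esrrg*, *Ppara*, *Ppargc1b*, *Prdm16*, *Ppargc1a*, *Esrra* and *Ebf2* in both. Some fell under 1.5-fold with other settings. *Esrra* of the control library had -0.50 at resolution 1.0. Without nuclei over 5% mitochondrial UMIs, *Ebf2* of the control library and *Ppargc1a* of the other library both had -0.54.

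*Esrrg* had 3120 CPM in brown program and 975 CPM in Slc7a10-type nuclei of the control library, a log2 ratio of -1.68 (-1.85 to -1.51). In the library labelled *Wtap*-BKO the values were 2295 and 387 CPM, a log2 ratio of -2.57 (-2.71 to -2.43). *Ppara* had -1.44 and -2.27, and *Ppargc1b* had -1.24 and -2.04. With marker sums per nucleus the libraries lay closer, at -1.97 and -2.34 for *Esrrg*, -1.97 and -2.10 for *Ppara*, and -1.67 and -1.88 for *Ppargc1b*. In Slc7a10-type nuclei of the control library these genes were not above immune nuclei in CPM, but above endothelial-like nuclei (values below). The part of background in these ratios was not tested, so no difference between the libraries is read from them. *Prdm16* had -1.27 and -1.38, *Ppargc1a* -1.04 and -0.84, *Esrra* -0.87 and -0.86, and *Ebf2* -0.66 and -0.89, with overlapping intervals in each gene.

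*Pparg* differed by less than 1.5-fold between these subtypes, but by -0.69 in the control library with marker sums. It had 3343 and 2423 CPM in brown program and Slc7a10-type nuclei of the control library (log2 ratio -0.46), and 1655 and 1556 CPM in the library labelled *Wtap*-BKO (-0.09, interval -0.17 to -0.01). *Cebpa* was the only member that was at least 1.5-fold higher in Slc7a10-type nuclei, at 1.12 (0.46 to 1.73) on 26 UMIs in the control library, and it had 0.20 (-0.10 to 0.49) in the library labelled *Wtap*-BKO.

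Several members in Slc7a10-type nuclei did not stand above their level in immune nuclei. *Esrrg* had 975 and 387 CPM in Slc7a10-type nuclei and 1292 and 449 CPM in macrophage- and T cell-like nuclei. After thinning, it was seen in 49.6% and 22.3% of Slc7a10-type nuclei against 55.2% and 23.2% of immune nuclei. By these shares it cannot be told from its level in immune nuclei. Without thinning, the shares of *Esrrg* were 51.4% and 34.5% in Slc7a10-type and 46.8% and 25.9% in immune nuclei. Thinning left out 77 and 63 Slc7a10-type and 225 and 753 immune nuclei. In the control library the intervals of the shares also overlapped for *Ppara* (64.5% against 69.6%), *Ppargc1b* (58.2% against 67.4%), *Ppargc1a* (31.9% against 27.1%) and *Prdm16* (33.3% against 33.7%). The level of *Ppargc1a* there was 537 CPM in Slc7a10-type and 402 CPM in immune nuclei. After thinning to 500 UMIs, which keeps all nuclei, the shares in the control library were 47.7% against 39.2% for *Ppara*, 43.6% against 38.7% for *Ppargc1b*, 19.3% against 11.8% for *Ppargc1a*, 17.4% against 12.6% for *Prdm16* and 33.0% against 31.5% for *Esrrg*, so the direction for *Ppara*, *Ppargc1b*, *Prdm16* and *Esrrg* turned with the thinning. The intervals of Slc7a10-type and immune nuclei overlapped in each of these 5 genes at 500 UMIs, and no order is read from them. In the library labelled *Wtap*-BKO, *Ppara* (43.7% against 33.7%), *Ppargc1b* (44.6% against 33.0%), *Ppargc1a* (15.7% against 7.8%) and *Prdm16* (17.5% against 7.8%) were above the immune nuclei. *Pparg* was above immune nuclei in Slc7a10-type nuclei of both libraries, at 87.2% and 69.0% against 69.6% and 26.4%. In the control library, Slc7a10-type, immune and endothelial-like nuclei had 1690.5, 2000 and 1117 CPM of *Ppara*. They had 1458, 1477.5 and 857 CPM of *Ppargc1b*, and 975, 1292 and 732 CPM of *Esrrg*. In the library labelled *Wtap*-BKO, Slc7a10-type and endothelial-like nuclei had 1078 and 1022 CPM of *Ppara*. They had 767 and 601 CPM of *Ppargc1b*, and 387 and 489 CPM of *Esrrg*. Before thinning, immune nuclei had medians of 909 and 1154 UMIs and Slc7a10-type nuclei of 1197 and 1852 UMIs.

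**Figure D4:**
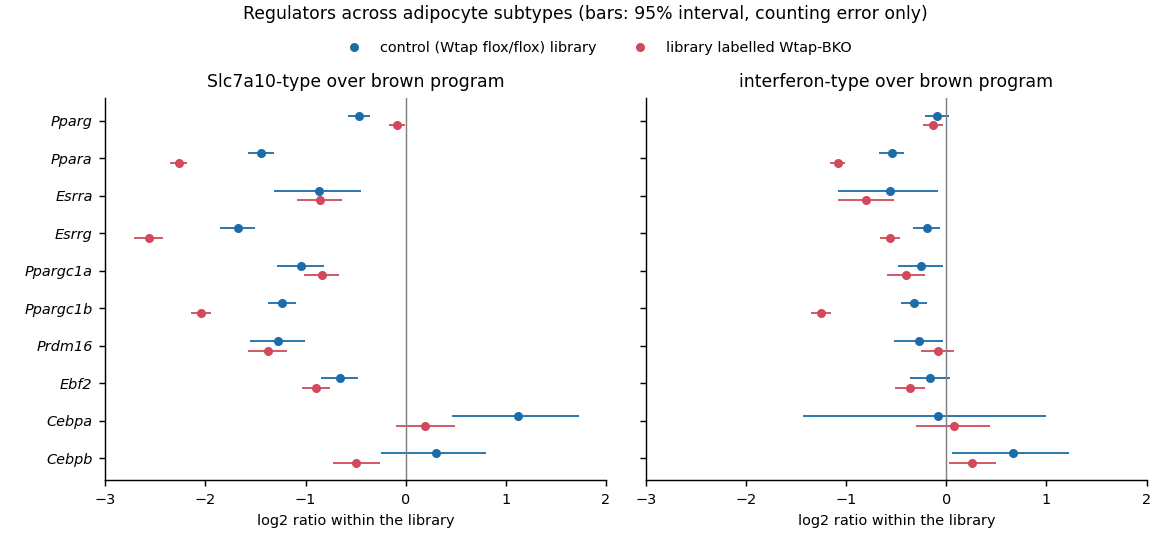
The left panel shows the log2 ratio of Slc7a10-type over brown program nuclei and the right panel that of interferon-type over brown program nuclei, by regulator, in each library, with bars for the 95% interval. *Ppara*, *Esrrg* and *Ppargc1b* lie further left in red than in blue in both panels, a gap that narrows or closes when nuclei are assigned by marker sums, and *Pparg* lies between -0.46 and -0.09.

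Interferon-type nuclei were closer to the brown program. In the control library, *Ppara* had a log2 ratio of -0.55 and *Esrra* of -0.56, and *Ppargc1b* had -0.33 (interval -0.46 to -0.20). In the library labelled *Wtap*-BKO, *Ppargc1b* had 3157 CPM in brown program and 1327 CPM in interferon-type nuclei, a log2 ratio of -1.25 (-1.35 to -1.15), and *Ppara* had -1.09 (-1.16 to -1.01). With marker sums the libraries were close, at -0.80 and -1.02 for *Ppargc1b*, -0.87 and -0.94 for *Ppara*, and -0.77 and -0.76 for *Esrrg*. *Prdm16* was at -0.28 and -0.09, and *Pparg* at -0.09 and -0.13. *Cebpb* had 0.66 (0.05 to 1.22) and 0.26 (0.02 to 0.49), and the value of the library labelled *Wtap*-BKO turned to -0.36 without nuclei over 5% mitochondrial UMIs.

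Within the brown program subtype alone, 4 members were at least 1.5-fold lower in the library labelled *Wtap*-BKO, against 11.8% of genes. These were *Pparg* (-1.01), *Ppargc1a* (-0.99), *Ebf2* (-0.66) and *Prdm16* (-0.65). *Esrrg* had -0.44, *Ppargc1b* -0.12, and *Ppara* and *Esrra* were both at 0.18. Within the Slc7a10-type, 7 members were at least 1.5-fold lower, against 15.7% of genes, with *Esrrg* at -1.33 (-1.55 to -1.11), *Ppargc1b* at -0.93 and *Ppara* at -0.65 (-0.80 to -0.50). Macrophage- and T cell-like nuclei had -1.53, -1.13 and -0.95 for these genes, and endothelial-like nuclei had -0.58, -0.51 and -0.13. In Slc7a10-type nuclei of the control library these genes were not above immune nuclei in CPM, but above endothelial-like nuclei. These values do not separate the genes' own RNA in the subtype from background that differed between the libraries, and this was not tested. *Cebpa* had 1.5 in the brown program and 0.58 (-0.03 to 1.24) in the Slc7a10-type, and *Cebpb* had 1.40 and 0.61.

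The number of members seen together in 1 nucleus differed by lineage and library. After thinning to 1000 UMIs, adipocyte-like nuclei had a mean of 5.69 members with a UMI in the control library and 4.58 in the library labelled *Wtap*-BKO, and 83.6% and 54.8% had at least 5. Brown program nuclei had means of 5.93 and 5.22, interferon-type nuclei 5.41 and 4.16, and Slc7a10-type nuclei 4.13 and 2.90. Macrophage- and T cell-like nuclei had means of 3.85 and 1.83, and 45.3% and 10.2% of them had at least 5 members. *Cebpb*, *Cebpa* and *Esrra* had quotients above 1 in macrophage-like nuclei of the library labelled *Wtap*-BKO, and *Cebpa* and *Cebpb* in those of the control library. How much of these counts is background was not tested.

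**Figure D5:**
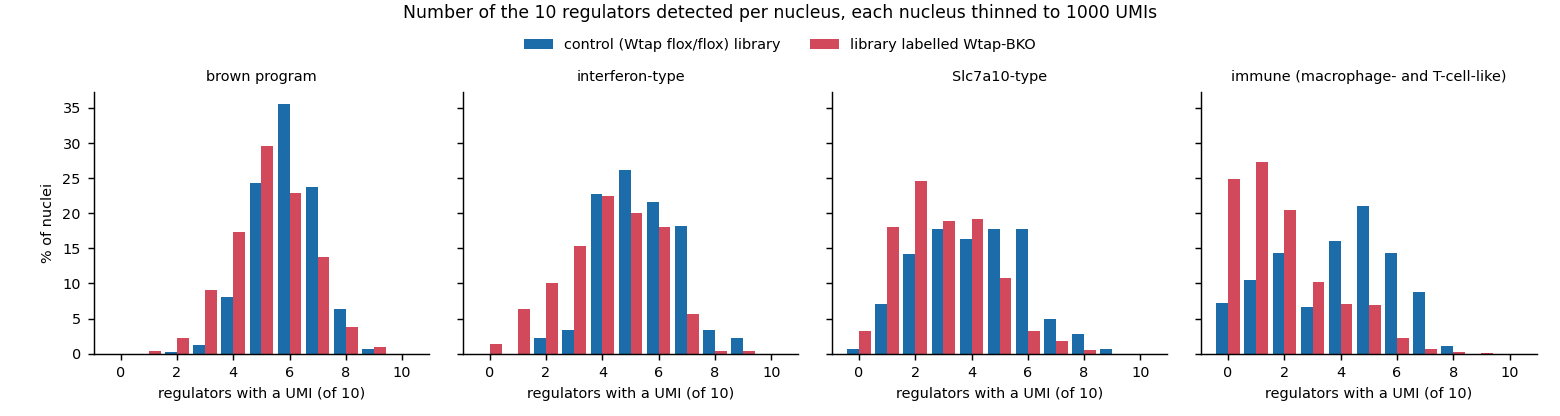
Bars give the percent of nuclei with 0 to 10 of the regulators detected, after thinning each nucleus to 1000 UMIs, for 3 adipocyte subtypes and for macrophage- and T cell-like nuclei in each library. Brown program nuclei centre on 5 to 6 regulators, Slc7a10-type nuclei on fewer, and immune nuclei of the library labelled *Wtap*-BKO mostly have 0 to 2.

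*Pparg*, *Prdm16* and *Ppargc1a* were all seen in 27.3% of adipocyte-like nuclei of the control library (897 of 3290) and in 6.94% of those of the library labelled *Wtap*-BKO (265 of 3820). The product of the 3 shares was 26.2% and 5.50%. None of the 3 was seen in 2.58% and 19.5%. In macrophage- and T cell-like nuclei, all 3 were seen in 10.5% and 0.53%, and none in 21.5% and 65.4%, so these nuclei also differed between the libraries.

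The median co-detection of pairs was close to the product of the single shares. Over the 45 pairs, the observed share divided by that product had a median of 1.01 in the control library, between 0.90 and 1.17. In the library labelled *Wtap*-BKO the median was 1.04, between 0.90 and 1.19. Ranges were wider under other settings. After thinning to 500 UMIs they were 0.69 to 1.29 (control) and 0.80 to 1.26. Within the brown program alone they were 0.84 to 1.26 and 0.77 to 1.18. Without nuclei over 5% mitochondrial UMIs they were 0.90 to 1.45 and 0.74 to 1.32. Over all pairs of genes seen in at least 2% of these nuclei, the median was 0.997 and 1.0, with quartiles of 0.832 and 1.16 and of 0.835 and 1.16. The highest pair in the library labelled *Wtap*-BKO was *Ppargc1a* with *Ebf2*, seen together in 516 nuclei (13.5%, with 11.3% as the product), followed by *Ppargc1a* with *Prdm16* in 384 nuclei (10.1% and 8.52%). In the control library the same pairs had quotients of 1.02 and 1.03. The lowest pairs were *Ebf2* with *Cebpb* at 0.90 in the control library and *Ebf2* with *Cebpa* at 0.90 in the library labelled *Wtap*-BKO.

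Across 22 combinations of cluster and library with at least 100 nuclei each, Pearson's r of log2(CPM + 10) was computed for each pair of members. It was 0.97 for *Ppargc1b* with *Ppara* and with *Esrrg*, 0.96 for *Prdm16* with *Esrrg*, and 0.93 for *Ppargc1a* with *Prdm16*. *Cebpa* and *Cebpb* had negative values with *Ebf2*, both at -0.41, and with *Pparg*, both at -0.40, and 0.82 with each other. *Esrra* had 0.90 with *Ppara*, 0.27 with *Ebf2*, 0.14 with *Cebpa* and 0.18 with *Cebpb*. These points share 2 libraries and their adipocyte RNA, and the values are a description. Among 7640 other genes, the closest to *Ppargc1b* were *Ntrk3*, a neurotrophin receptor (r = 0.98), and *Akap1*, a kinase anchor of the mitochondrial surface (0.98), and both were also the closest to *Ppara* (0.96 each). For *Esrrg* these were *Adra1a*, the alpha-1A adrenergic receptor, and *Slc22a5*, the carnitine transporter (0.97 each). The closest genes were *Kif1b* (0.96) for *Pparg*, *Gm43597* (0.96) and *Vegfa* (0.95) for *Ppargc1a*, *Sh3pxd2a* (0.97) for *Prdm16* and *Slc24a3* (0.97) for *Ebf2*. For *Esrra* and *Cebpa* they were *Inca1* (0.92) and *Ldha* (0.91).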

How the data were processed

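The deposited values were raw counts of UMIs per gene and nucleus, which the authors had made with Cell Ranger 5.0.0. The submitters' processing notes name the build mm10, and the treatment of intronic reads is not given in the sources used here. The lowest total was 500 UMIs per nucleus. No nucleus was removed here. The files list 32285 genes, and 38 symbols occur more than once, of which the earlier entry was used. Coordinates and spans are from RefSeq GRCm38.p6.

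Nuclei were clustered with Seurat 5.3.0 in R 4.3.3 after the methods of the study, with integration by canonical correlation, 2000 variable features, a clustering resolution of 0.5 and the top 20 PCs. The members, their partners, *Wtap* and *Ucp1* (50 genes) were left out of the features. A non-adipocyte cluster was named "X-like" with at least 3 markers of 10 or more UMIs at 2 times their CPM elsewhere. An adipocyte-like cluster needed 50% of 12 markers at 1.5 times their CPM in the named clusters. The data had been seen when these thresholds were chosen, and the members and lists were chosen with earlier results of these data known.

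UMIs were summed per library and class. With 1 library per genotype, called means past a fold of 1.5 (2 between lineages), among genes with at least 20 UMIs in both classes together. A class with 0 UMIs was set to 3 UMIs. All members are named, with the 4 lowest and 4 highest of each list and the 3 genes most like each member by correlation, of which the closest are printed; a few genes that these rules name are not reported here. Scrublet (scanpy 1.11.5) called 3 and 0 nuclei and was not used, except that the highest scores (721 and 616 nuclei) were removed as an alternative. The scripts were tested on simulated data.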

Additional observations from a re-analysis of the deposited data

Results flagged for a closer look

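*Ppargc1b* had a log2 ratio of 2.79 (labelled *Wtap*-BKO over control) in B cell-like nuclei, while its ratio in adipocyte-like nuclei was -0.43. The value rests on 13 and 59 nuclei with 1 and 46 UMIs of the gene (interval 0.24 to 8.12). The difference between these classes was not tested.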

How the results depend on the processing

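No paired analysis was possible because each genotype had 1 library, and no replicate could be left out. In adipocyte-like nuclei, all 80 member ratios between the libraries kept their direction under 8 alternatives, with *Pparg* between -1.13 and -0.82 and *Cebpa* between 1.10 and 1.54. Over non-adipocyte nuclei, 73 of 80 kept their direction. *Esrra*, with an interval that included 0, turned under 5 alternatives, as far as -0.56 without nuclei over 5% mitochondrial UMIs. Among ratios whose interval excluded 0, 2 reversed: *Cebpa* had -0.17 with lineages set by marker sums per nucleus and -0.020 with the highest Scrublet scores removed. Between Slc7a10-type and brown program nuclei, 1 of 160 reversed, *Pparg* of the library labelled *Wtap*-BKO at 0.022 with marker sums. Between interferon-type and brown program nuclei, 134 of 140 kept their direction. Of those with an interval that excluded 0, 2 reversed in that library without nuclei over 5% mitochondrial UMIs, *Pparg* at 0.20 and *Cebpb* at -0.36. The others that turned had intervals that included 0: *Prdm16* of that library (0.14 under the same alternative) and *Cebpa* (-0.28 in that library with marker sums, and 0.18 in the control library at resolution 1.0). For adipocyte-like over non-adipocyte nuclei, 157 of 160 kept their direction. Their sizes changed more, for *Ppara* of the control library from 1.25 to 3.15.

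The median over the members between the libraries in non-adipocyte nuclei was -1.43 without nuclei over 5% mitochondrial UMIs, -0.74 with median-of-ratios scaling and -0.82 with the highest Scrublet scores removed. The median of adipocyte-like over non-adipocyte nuclei was 1.05 (control) and 1.83 (labelled *Wtap*-BKO) without nuclei over 5% mitochondrial UMIs, 1.90 and 1.96 with marker sums, and 1.75 in the library labelled *Wtap*-BKO with the highest Scrublet scores removed. With marker sums, the control library had a median of -1.34 for Slc7a10-type and -0.64 for interferon-type over brown program nuclei. The share of all genes at least 1.5-fold lower in adipocyte-like nuclei ran from 8.90% to 21.0%, the latter with no minimum of UMIs per gene. It stood beside 5 members under each of these 9 alternatives. Within the mitochondrial bins the members numbered 2 to 5, with no share of all genes computed there. The median of the partners turned to 0.080 without nuclei over 5% mitochondrial UMIs and to 0.054 with mitochondrial UMIs left out of the denominator. Targets at least 1.5-fold lower numbered 6 without nuclei over 5% mitochondrial UMIs. Median-of-ratios scaling shifted all ratios over non-adipocyte nuclei by -0.21 (log2), and those of adipocyte-like over non-adipocyte nuclei by -0.11 (control) and 0.13. The causes were not tested. With 8 PCs, no interferon-type cluster was found, so that comparison was not run there. Depth limits the sparse genes *Cebpa*, *Cebpb*, *Esrra* and *Wtap*, which were seen in under 30% of thinned adipocyte-like nuclei of both libraries.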
